A study of Homo sapiens with 6 samples.

Results

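The genes of the translation initiation factors were compared between cells of Ishikawa, a cell line from a human endometrial cancer, that received an siRNA against TCF19 (siTCF19, 3 libraries) or a negative control siRNA (siNC, 3 libraries). Both groups were transfected by lipofection, kept in DMEM with serum and harvested after 48 hours for RNA-seq of total RNA. Members were the protein-coding genes whose symbol begins with EIF and a digit, leaving out the eIF2 alpha kinases (symbols beginning EIF2AK), which gave 52 of the 58735 genes in the table. The rule goes by symbol and gene type and uses no expression value, although it was set with earlier results of these data known. The study used 1 cell line and 1 time point, the sources used here do not say how many siRNA sequences were in each reagent, and the labels do not state whether a group's 3 libraries are separate cultures. The p-values therefore cover the spread among these libraries, which may be technical, and nothing wider.

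Initiation factors bring the small ribosomal subunit, the initiator tRNA and an mRNA together at a start codon. eIF2 carries the initiator tRNA as a complex with GTP, eIF3 is the large scaffold on the small subunit, and eIF4F (the cap-binding protein eIF4E, the scaffold eIF4G and the helicase eIF4A) recruits the subunit to the capped end of the mRNA. A pair of well-known switches sets the rate: phosphorylation of eIF2 alpha, which blocks its recharging by eIF2B, and the mTORC1 kinase, which releases eIF4E from its binding proteins. Several of these genes make mRNAs that start with a C and a run of pyrimidines, the terminal oligopyrimidine or TOP start, through which mTORC1 and LARP1 control translation of the ribosomal protein mRNAs.

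The libraries held 14680022 to 15529688 counts in siTCF19 and 14872698 to 16244705 counts in siNC. Library pairs differed by more than counting noise, with a chi-square per degree of freedom of 2.28 to 3.77 inside the groups and of 25.6 to 30.2 across them. TCF19, the targeted gene, had 675, 529 and 606 counts in the siTCF19 libraries, against 2572, 2905 and 2756 in the siNC libraries, and was 4.59-fold lower (95% interval 4.22 to 5.00, edgeR adjusted p = 6.15e-29). All 6 epithelial markers examined were detected, at means of 159 to 881 CPM (counts scaled to a fixed total, with TMM-adjusted library sizes). Of the 8 leukocyte, endothelial and stromal markers, DCN was at 0 in every library, COL3A1 had at most 1 count, and PTPRC, CD3E, CD14 and PECAM1 had at most 3 counts in any siTCF19 library and at most 16 counts in any siNC library. VWF averaged 15.5 CPM in siTCF19 and 5.13 CPM in siNC, and COL1A1 averaged 26.7 CPM in siTCF19 and 17.9 CPM in siNC; the part of other cell types in the results was not tested.

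Transcripts of the initiation factors were modestly lower after TCF19 knockdown. The 52 genes together took 1.05% to 1.08% of all counts in siTCF19 libraries, against 1.19% to 1.20% in siNC libraries, so the groups did not overlap. Of the 50 members that passed the filter on low counts, 31 fell and 3 rose at an edgeR adjusted p under 0.05, and 16 were not called. EIF4E1B, an eIF4E copy known from germ cells, and EIF1AY, the Y-linked copy of EIF1AX, did not pass the filter. Over all 17299 tested genes 41.5% were called, 20.8% lower and 20.7% higher. The median log2 fold change was -0.21 over the 50 members and 0.00 over all tested genes, and 44 of the 50 values were below 0, of which 8, all uncalled, turned above 0 when only library size was scaled. In bulk RNA, fewer cells with a transcript and less of it per cell cannot be told apart. In 30 members every siTCF19 library lay below every siNC library, in 4 every siTCF19 library lay above, and in 16 the groups overlapped; over all tested genes 24.9% lay below and 24.4% above without overlap. Initiation factors are abundant transcripts, and abundant genes were more often called: of the 5270 tested genes that averaged 50 CPM or more, 34.3% were lower and 26.5% higher, with a median of -0.03. The 39 members above the same level held 25 lower and 2 higher genes, with a median of -0.20. Scaling by library size alone gave 4512 higher and 2842 lower genes over the whole table, with a median of 0.06, and 4 higher and 25 lower members.

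**Figure D1:**
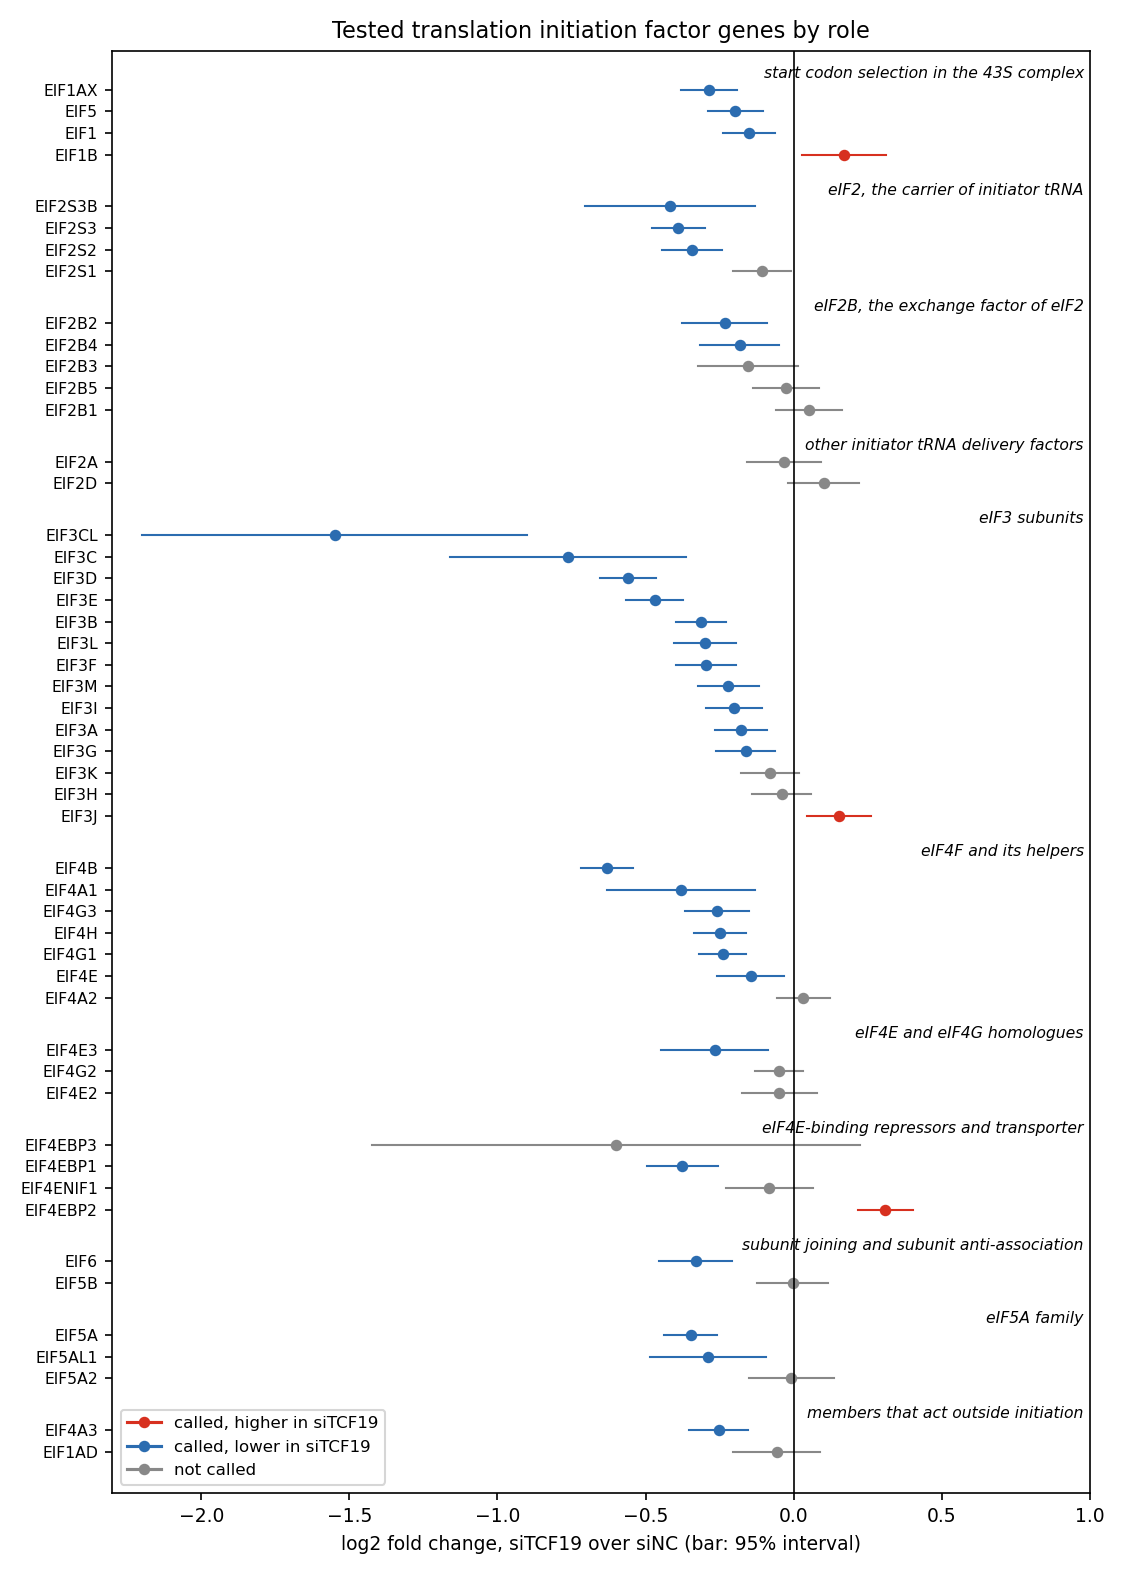
Log2 fold change (horizontal axis, siTCF19 over siNC) of the 50 tested members, grouped by role. Points are edgeR estimates, bars are 95% intervals, and colour gives the call; most points lie left of 0, with EIF4EBP2, EIF3J and EIF1B called to the right.

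The members with the clearest differences were EIF4B and EIF3D. EIF4B, an RNA-binding cofactor that stimulates the eIF4A helicase (chr12:53006158-53042209, plus strand, hg38), had 488, 536 and 514 CPM in the siTCF19 libraries, against 795, 786 and 800.3 CPM in the siNC libraries. EIF3D, the eIF3 subunit with a cap-binding surface (chr22:36510850-36529436, minus strand), had 200.0, 190.1 and 196 CPM in siTCF19, against 279, 291 and 294 CPM in siNC. In both genes the lowest siNC library stood well above the highest siTCF19 library. EIF4B was 1.55-fold lower (95% interval 1.46 to 1.64, log2 fold change -0.63 ± 0.04 (SE), edgeR adjusted p = 6.74e-16). EIF3D was 1.47-fold lower (95% interval 1.38 to 1.57, log2 fold change -0.56 ± 0.05 (SE), edgeR adjusted p = 2.5e-13).

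**Figure D2:**
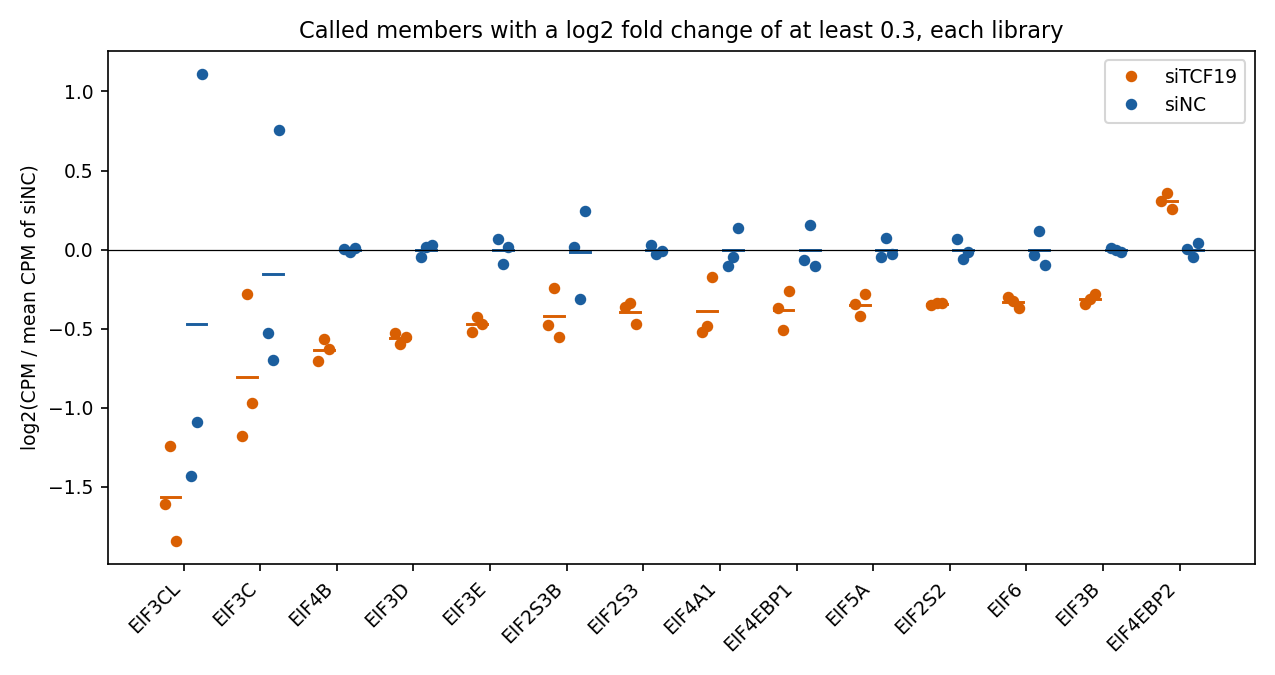
CPM of each library on a log2 scale, relative to the mean CPM of the 3 siNC libraries (vertical axis), for called members that changed by 0.3 or more on the log2 scale. Points are libraries and short lines are means of the points; EIF4B and EIF3D show tight, separate groups, whereas in EIF3C and EIF3CL siNC replicate 3 stands above all other libraries.

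EIF4B and EIF3D both begin, in RefSeq, with the kind of sequence that marks TOP mRNAs. RefSeq (GRCh38.p14) start windows were found for 44 of the 52 members. None was found for EIF2S2, EIF3A, EIF3CL, EIF3E, EIF3G, EIF3H, EIF3L and EIF4EBP1. A pyrimidine start was counted where any listed start of a gene had C as its first base within an unbroken run of at least 5 C or T, read on the transcript strand only. Shown here, with 40 bases before and 20 bases from the start onward, are the starts of the lower members EIF4B, EIF3D, EIF3F, EIF2S3 and EIF2S3B and of EIF4A2 and EIF2A, which were not called; capitals mark the pyrimidine run, and its first capital is the annotated first base of the transcript.
EIF4B, chr12:53006416-53006475, plus strand: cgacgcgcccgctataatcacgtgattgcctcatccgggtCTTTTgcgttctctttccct
EIF3D, chr22:36529147-36529206, minus strand: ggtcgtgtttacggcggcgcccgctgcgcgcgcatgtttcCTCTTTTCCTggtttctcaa
EIF3F, chr11:7987297-7987356, plus strand: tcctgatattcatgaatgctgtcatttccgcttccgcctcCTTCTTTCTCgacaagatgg
EIF2S3, chrX:24054916-24054975, plus strand: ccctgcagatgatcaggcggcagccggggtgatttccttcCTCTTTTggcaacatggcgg
EIF2S3B, chr12:10505850-10505909, plus strand: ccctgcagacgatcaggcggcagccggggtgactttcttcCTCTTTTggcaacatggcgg
EIF4A2, chr3:186783537-186783596, plus strand: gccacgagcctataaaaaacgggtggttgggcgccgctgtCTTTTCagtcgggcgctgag
EIF2A, chr3:150546747-150546806, plus strand: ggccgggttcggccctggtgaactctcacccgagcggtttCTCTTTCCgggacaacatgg

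A pyrimidine start was found in 10 of the 44 members (22.7%), against 5.14% of the 27305 genes in the RefSeq table and 6.98% of the 11144 tested genes that have a window there. Among these 10, EIF4B, EIF3D, EIF2S3, EIF2S3B, EIF3F and EIF3M fell, none rose, and EIF2A, EIF2D, EIF3K and EIF4A2 were not called; the median log2 fold change was -0.26. The 32 tested members with a RefSeq start of another kind held 18 lower and 3 higher genes, with a median of -0.19. Over all tested genes with a window, the 778 with a pyrimidine start had a median of -0.08, with 34.8% lower and 19.8% higher. The 10366 without one had a median of 0.00, with 22.95% lower and 23.7% higher. Among tested genes of at least 50 CPM, whatever their start, 34.3% were lower and 26.5% higher. The expression level of the 778 genes was not examined, so the part of abundance in their share was not tested. The split by start was chosen after the values had been seen, and a match describes the letters of the window only. EIF4A2 and EIF2A had the run and no call, so the letters and the call did not go together in every member. Of the 4 members long known as TOP mRNAs, EIF4B, EIF3E and EIF3F fell and EIF3H was not called (log2 fold change -0.04), with a median of -0.38. EIF3E and EIF3H have no start window, so they stand in neither class of the comparison by start.

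**Figure D3:**
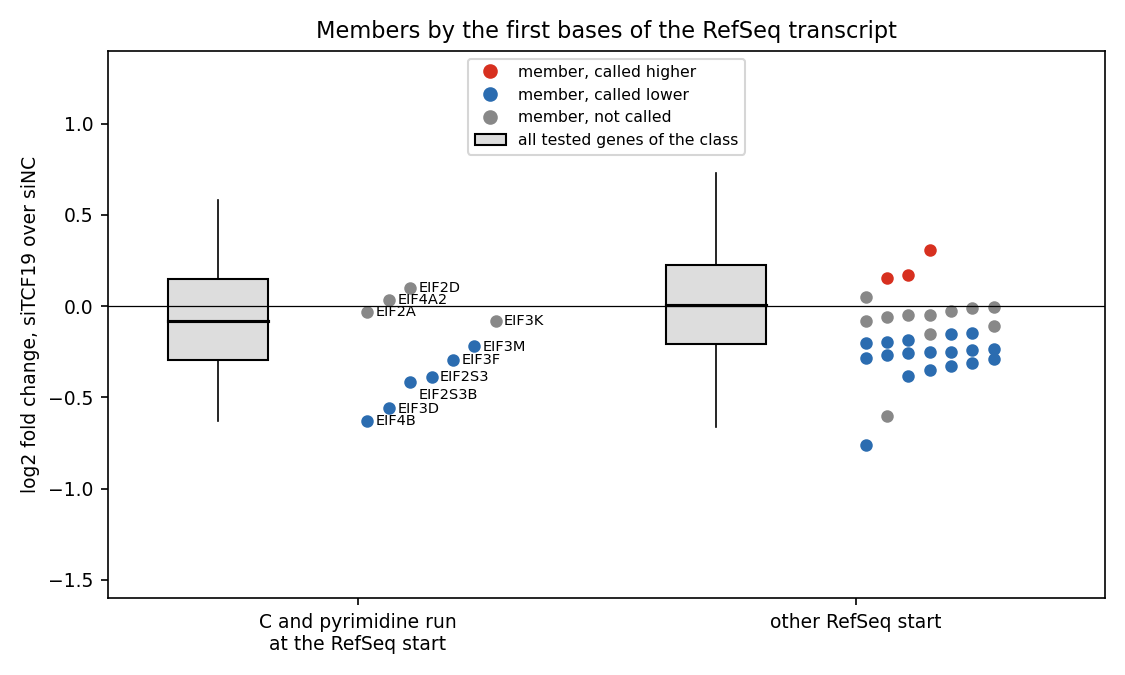
Log2 fold change (vertical axis, siTCF19 over siNC) of members with a C and a pyrimidine run at the RefSeq start and of members with another RefSeq start. Coloured points are members, and grey boxes give the median and quartiles, with lines to the 5th and 95th percentiles, of all tested genes in the class; in the first class 6 of 10 members were called lower, and in the second 18 of 32.

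Start codon selection is done by eIF1, eIF1A and eIF5 on the small subunit: eIF1 guards against wrong codons, eIF1A helps the subunit scan, and eIF5 triggers GTP hydrolysis by eIF2. All 4 tested genes of this group were called, 3 lower and 1 higher, beside 41.5% of all tested genes (20.8% lower and 20.7% higher). EIF1AX, which encodes eIF1A, fell by 0.29 on the log2 scale (edgeR adjusted p = 3.04e-06) and EIF5 by 0.20. EIF1 had 368, 370.4 and 388 CPM in siTCF19, against 417, 417 and 415 CPM in siNC, a log2 fold change of -0.15 ± 0.04 (SE, edgeR adjusted p = 0.00452). Its paralogue EIF1B moved the other way, with 43.2, 44.3 and 41.1 CPM in siTCF19, against 39.3, 37.7 and 37.3 CPM in siNC, a log2 fold change of 0.17 ± 0.07 at an edgeR adjusted p of 0.0495, just inside the threshold. That call was lost without any of siTCF19 replicates 1 and 2 and siNC replicates 1, 2 and 3 (log2 fold changes 0.15 to 0.19), and EIF1 lost its call only when library size alone was scaled (-0.09, edgeR adjusted p = 0.0823).

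The beta and gamma subunits of eIF2, the carrier of initiator tRNA, were lower. EIF2S3, the gamma subunit (chrX:24054716-24077971, plus strand), had 441, 449 and 409.9 CPM in siTCF19, against 580.5, 558 and 565 CPM in siNC, and was 1.31-fold lower (95% interval 1.23 to 1.39, edgeR adjusted p = 1.06e-09). EIF2S2, the beta subunit, had 125, 126 and 126 CPM in siTCF19, against 167, 153 and 158 CPM in siNC, and fell by 0.34 on the log2 scale (edgeR adjusted p = 3.4e-07). The siTCF19 libraries of both genes lay wholly below the siNC libraries. Of the 100-base words of EIF2S2, 14.8% also occur in other genes, most often in its pseudogenes EIF2S2P4 and EIF2S2P3. EIF2S1, the alpha subunit whose phosphorylation blocks initiation, averaged 164 ± 4.60 CPM in siTCF19 and 177 ± 2.82 CPM in siNC (SD, n = 3 each); its groups were also separate, but the log2 fold change of -0.11 was not called (edgeR adjusted p = 0.0741). EIF2S3B, a close copy of EIF2S3, was called lower at a low level, with 7.34, 8.62 and 6.96 CPM in siTCF19, against 10.3, 8.21 and 12.1 CPM in siNC. Its groups overlapped, and 11.9% of its 100-base words also occur in EIF2S3. Without siTCF19 replicate 1 or 3 or without siNC replicate 3 it was not called (log2 fold changes -0.38, -0.35 and -0.27).

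The eIF2B complex, which recharges eIF2 with GTP, showed smaller values. EIF2B2 and EIF2B4, its beta and delta subunits, fell by 0.23 and by 0.18 on the log2 scale. Neither was called without siTCF19 replicate 1 (-0.18 and -0.19) or without siNC replicate 2 (-0.16 and -0.14), nor was EIF2B4 without siTCF19 replicate 2 (-0.14). EIF2B3, EIF2B5 and EIF2B1 had log2 fold changes of -0.15, -0.03 and 0.05 and were not called. EIF2B1, the highest of the 5 per length, had 106, 98.7 and 108 CPM in siTCF19, against 103, 96.0 and 103 CPM in siNC, with overlapping groups. Neither of the factors that can deliver initiator tRNA without eIF2 was called: EIF2A had 64.0, 68.3 and 62.4 CPM in siTCF19, against 70.2, 62.1 and 66.9 CPM in siNC, and EIF2D had a log2 fold change of 0.10 (edgeR adjusted p = 0.17).

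eIF3 supplied the largest group, 14 genes, of which 11 fell, 1 rose and 2 were not called. Of all tested genes 20.8% were lower and 20.7% higher. The 11 include EIF3C and EIF3CL, which were not called without siNC replicate 3. Besides EIF3D, the largest difference in a gene with separate groups was in EIF3E, an outer subunit, which had 204, 218 and 212 CPM in siTCF19, against 306, 275 and 297 CPM in siNC, and was 1.38-fold lower (log2 fold change -0.47 ± 0.05 (SE), edgeR adjusted p = 9.06e-11). EIF3B, a core scaffold subunit, had 469, 479 and 490.0 CPM in siTCF19, against 599.5, 595 and 590.4 CPM in siNC, and fell by 0.31 on the log2 scale (edgeR adjusted p = 5.96e-08). Within each group the 3 EIF3B values lay close together. EIF3L and EIF3F each fell by 0.30, EIF3M by 0.22, EIF3A by 0.18 and EIF3G by 0.16 on the log2 scale; without siNC replicate 2, EIF3G was not called (-0.12, edgeR adjusted p = 0.0676). EIF3L shares 51.8% of its exon bases with AL022311.1 and ANKRD54, so reads there could belong to either gene. EIF3I, a core subunit, had 263, 270.0 and 286 CPM in siTCF19, against 320.4, 323 and 298 CPM in siNC, a log2 fold change of -0.20 ± 0.05 (SE, edgeR adjusted p = 0.00056). EIF3K and EIF3H had log2 fold changes of -0.08 and -0.04 and were not called. EIF3J, the loosely bound subunit that sits near the decoding site, was the only eIF3 gene called higher, with 142, 153 and 134 CPM in siTCF19, against 134, 123 and 130.2 CPM in siNC (log2 fold change 0.15 ± 0.05 (SE), edgeR adjusted p = 0.0195). Its lowest siTCF19 library and its highest siNC library were nearly equal, and it was not called without siTCF19 replicate 2 (0.11) or siNC replicate 2 (0.12).

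The proteins of eIF3 act in 1 complex, so the levels of their transcripts were set side by side per length, as deposited FPKM (fragments scaled by gene length and library size). EIF3I had the highest mean level in both groups, 157 FPKM in siTCF19 and 180 FPKM in siNC. EIF3D was the second of the 12 subunit genes in siNC and the sixth in siTCF19, at 47.6 FPKM in siTCF19 and 70.1 FPKM in siNC. EIF3E lay at 34.9 FPKM in siTCF19 and 48.3 FPKM in siNC, and EIF3J at 44.5 FPKM in siTCF19 and 40.03 FPKM in siNC. The lowest of the 12 in both groups was EIF3F, at 16.7 FPKM in siTCF19 and 20.5 FPKM in siNC. EIF3C and EIF3CL are left out of this order because their reads could be split between near-identical copies.

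**Figure D4:**
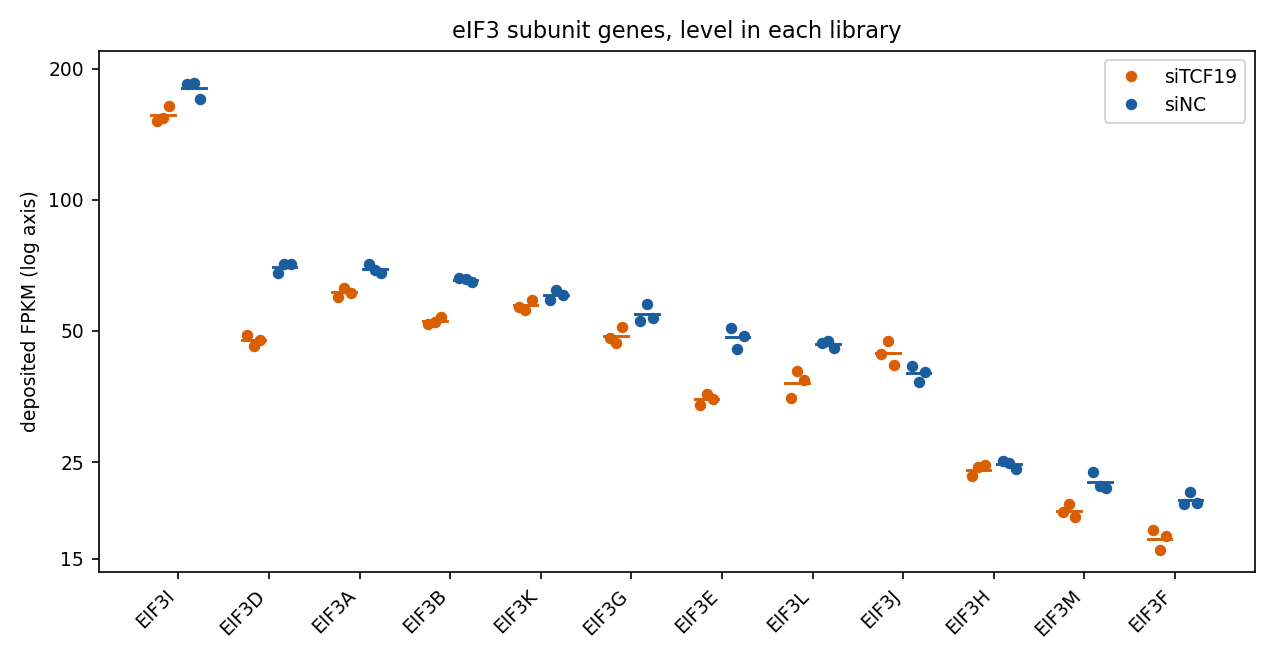
Deposited FPKM (vertical log axis) of 12 eIF3 subunit genes, ordered by their siNC mean. Points are libraries and short lines are group means; EIF3D and EIF3E show the widest gaps between siTCF19 and siNC, and EIF3J is the gene whose siTCF19 points lie above its siNC points.

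EIF3C and EIF3CL, 2 near-identical copies of a core subunit gene on chromosome 16, had the largest fold changes of all members, and these rested on 1 library. EIF3C had 234, 414 and 266 counts in siTCF19, against 338, 325 and 883 counts in siNC. EIF3CL had 78, 95 and 65 counts in siTCF19, against 81, 111 and 505 counts in siNC. The sum of both copies was 312, 509 and 331 counts in siTCF19, against 419, 436 and 1388 counts in siNC, so siNC replicate 3 stood apart and the other libraries of the groups overlapped. The log2 fold changes were -0.76 ± 0.20 for EIF3C and -1.55 ± 0.32 for EIF3CL (SE, edgeR adjusted p = 0.00159 and 0.000114). Without siNC replicate 3 they were -0.15 and -0.30, and neither was called (edgeR adjusted p = 0.419 and 0.235). DESeq2 called neither with all libraries (adjusted p = 0.312 and 0.138). The same library held the most counts of the leukocyte marker PTPRC, which were 0, 0 and 0 in siTCF19, against 0, 2 and 16 in siNC. CD3E had 0, 0 and 0 counts in siTCF19, against 2, 0 and 5 in siNC. CD14 had 3, 1 and 1 counts in siTCF19, against 2, 7 and 12 in siNC. PECAM1, of the same marker list, was highest in siNC replicate 2 instead. It had 3, 2 and 0 counts in siTCF19, against 6, 15 and 8 in siNC. The part of other cells in the EIF3C counts was not tested. Of the 100-base words of EIF3CL, 95.2% also occur in EIF3C, and the sources used here do not say how reads that match several places were treated. Without both copies the eIF3 group held 9 lower and 1 higher of 12 genes, with a median of -0.21. The shares over all tested genes were 20.8% lower and 20.7% higher, with a median of 0.00.

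In the eIF4F group, 6 of 7 genes fell and 1 was not called, beside 20.8% lower and 20.7% higher of all tested genes. EIF4G1, the main scaffold, had 1199.6, 1209 and 1236 CPM in siTCF19, against 1398, 1488 and 1419 CPM in siNC, a log2 fold change of -0.24 ± 0.04 (SE, edgeR adjusted p = 3.54e-06). EIF4G3, its paralogue, had 94.0, 95.9 and 93.2 CPM in siTCF19, against 111, 109 and 119 CPM in siNC, and fell by 0.26 on the log2 scale (edgeR adjusted p = 0.000119). The groups of both scaffold genes were separate. EIF4H, a helicase cofactor related to EIF4B, had 476, 483 and 512 CPM in siTCF19, against 579, 595 and 573 CPM in siNC, and fell by 0.25 on the same scale (edgeR adjusted p = 7.34e-06), a smaller value than that of EIF4B. The cap-binding gene EIF4E itself had 96.2, 96.4 and 90.5 CPM in siTCF19, against 107, 96.6 and 109.8 CPM in siNC; the lowest siNC value exceeded the highest siTCF19 value by very little, and the log2 fold change of -0.15 ± 0.06 had an edgeR adjusted p of 0.0353. Without siTCF19 replicate 1 or 3, or siNC replicate 1 or 3, EIF4E was not called (log2 fold changes -0.15, -0.11, -0.13 and -0.11). EIF4A2, a helicase gene, had 458, 491 and 478 CPM in siTCF19, against 480.2, 454 and 460.1 CPM in siNC, with overlapping groups and a log2 fold change of 0.03 (edgeR adjusted p = 0.585).

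EIF4A1, which encodes the other eIF4A helicase (chr17:7572706-7579005, plus strand), was counted at a low level, 1.88 FPKM in siTCF19 and 2.45 FPKM in siNC, against 76.8 FPKM in siTCF19 and 75.1 FPKM in siNC for EIF4A2. It had 9.17, 9.42 and 11.7 CPM in siTCF19, against 12.2, 12.7 and 14.4 CPM in siNC, a log2 fold change of -0.38 ± 0.12 (SE, edgeR adjusted p = 0.0115). The annotation places 48.6% of its exon bases within same-strand exons of other genes, with the longest overlaps in AC016876.2, SENP3-EIF4A1 and SNORD10. Of its 100-base words 35.6% occur in other genes, most often in the first 2 of these. Without siTCF19 replicate 1 or 2, or siNC replicate 3, EIF4A1 was not called (log2 fold changes -0.31, -0.33 and -0.31), and DESeq2 did not call it with all libraries (adjusted p = 0.0572). SENP3-EIF4A1 itself had 28, 23 and 25 counts in siTCF19, against 24, 28 and 17 counts in siNC. The sources used here do not say how reads in shared exons were assigned, and the part of the overlap in the level of EIF4A1 was not tested.

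Of the homologues, EIF4E3 fell by 0.27 on the log2 scale (edgeR adjusted p = 0.0142; -0.22 and not called without siTCF19 replicate 2), and EIF4E2 and EIF4G2 were not called. EIF4E2, a cap-binding protein that acts in repression with GIGYF2, had 65.7, 71.5 and 74.0 CPM in siTCF19, against 67.5, 78.3 and 72.4 CPM in siNC. EIF4G2, also known as DAP5, which lacks the eIF4E-binding region of eIF4G, had 1131, 1148 and 1088 CPM in siTCF19, against 1148, 1166 and 1169 CPM in siNC, a log2 fold change of -0.05 ± 0.04 (SE, edgeR adjusted p = 0.345).

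The eIF4E-binding repressors moved in opposite directions. EIF4EBP1, which encodes 4E-BP1, a repressor released from eIF4E when mTORC1 phosphorylates it, had 115, 105 and 124 CPM in siTCF19, against 142, 165 and 138 CPM in siNC. EIF4EBP2, which encodes 4E-BP2 (chr10:70404379-70428618, plus strand), had 299, 309.7 and 288 CPM in siTCF19, against 242, 234 and 248 CPM in siNC. Neither gene showed overlap between the groups, with EIF4EBP1 low and EIF4EBP2 high in siTCF19. EIF4EBP1 was 1.30-fold lower (log2 fold change -0.38 ± 0.06 (SE), edgeR adjusted p = 1.8e-06). EIF4EBP2 was 1.24-fold higher (95% interval 1.16 to 1.32, log2 fold change 0.31 ± 0.05 (SE), edgeR adjusted p = 4.75e-07), the largest rise among the members. EIF4EBP3 was scarcely counted, with 7, 22 and 8 counts in siTCF19, against 16, 21 and 19 counts in siNC, and was not called; 73.4% of its exon bases are shared with the readthrough gene ANKHD1-EIF4EBP3. EIF4ENIF1, the transporter that takes eIF4E into the nucleus, had a log2 fold change of -0.08 and was not called.

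Of the factors that act at subunit joining, EIF6 fell and EIF5B was not called. EIF6, which keeps free large subunits from joining and also serves in their assembly, had 66.6, 65.4 and 63.6 CPM in siTCF19, against 80.1, 89.0 and 76.7 CPM in siNC, and fell by 0.33 on the log2 scale (edgeR adjusted p = 2.05e-05). EIF5B, the GTPase that joins the subunits, had a log2 fold change of -0.0025. Within the eIF5A family, EIF5A, whose protein carries the hypusine residue and helps ribosomes through elongation and termination, had 667, 633 and 697 CPM in siTCF19, against 819, 892 and 829 CPM in siNC. It was 1.27-fold lower (log2 fold change -0.35 ± 0.04 (SE), edgeR adjusted p = 1.68e-08). Its paralogue EIF5A2 had 51.1, 54.0 and 46.7 CPM in siTCF19, against 55.6, 46.3 and 50.9 CPM in siNC, with overlapping groups (edgeR adjusted p = 0.94). EIF5AL1, a copy of EIF5A, fell by 0.29 on the log2 scale, at a mean of 18.7 ± 1.25 CPM in siTCF19 and 22.8 ± 2.71 CPM in siNC (SD, n = 3 each). EIF5AL1 was not called without siTCF19 replicate 2 (-0.23) or siNC replicate 2 (-0.19). Among the members whose names carry EIF but whose proteins act elsewhere, EIF4A3, the helicase of the exon junction complex, had 159, 171 and 169.6 CPM in siTCF19, against 199, 205 and 192 CPM in siNC, and fell by 0.25 (edgeR adjusted p = 4.11e-05). EIF1AD had a log2 fold change of -0.06 and was not called.

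Several paralogues thus had different calls, and the log2 ratio of their CPM was compared within each library in 6 pairs. The test was an exact two-sided permutation test over libraries, which with 3 against 3 cannot give a p under 0.1. The ratio EIF4EBP1/EIF4EBP2 averaged -1.38 ± 0.17 in siTCF19 and -0.70 ± 0.18 in siNC (SD, n = 3 each), a difference of -0.68 with no overlap (exact p = 0.1, 0.2 after Benjamini-Hochberg adjustment over the 6 pairs). EIF1/EIF1B averaged 3.13 ± 0.09 in siTCF19 and 3.45 ± 0.04 in siNC, a difference of -0.32, and EIF4A1/EIF4A2 averaged -5.55 ± 0.18 in siTCF19 and -5.13 ± 0.15 in siNC, a difference of -0.41. Both of these pairs also showed no overlap, with the same exact p and adjusted p. The EIF4A1 ratio rests on the low counts of a gene that shares 48.6% of its exon bases with other genes. It may therefore not give the ratio of the 2 transcripts. EIF5A/EIF5A2 differed by -0.34 with overlap (exact p = 0.2, adjusted 0.3), EIF4E/EIF4E2 by -0.10 (exact p = 0.5, adjusted 0.6) and EIF4G1/EIF4G3 by 0.02 (exact p = 0.9, adjusted 0.9). No pair passed an adjusted p of 0.05, a level this design could not reach.

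**Figure D5:**
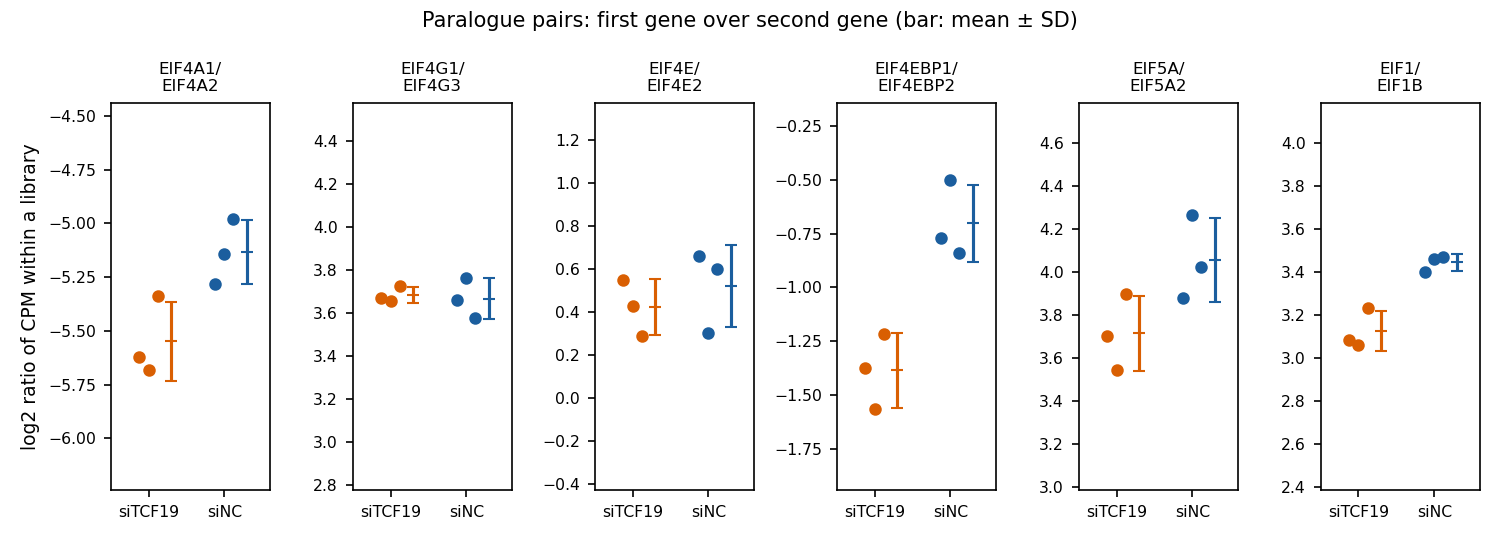
Log2 ratio of the CPM of the first to the second gene of 6 paralogue pairs (vertical axes, all spanning the same range of log2 units) in each library. Points are libraries and bars are means with SD; EIF4EBP1/EIF4EBP2 shows the widest gap, with a mean of -1.38 in siTCF19 and -0.70 in siNC, and EIF4G1/EIF4G3 overlaps fully.

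Initiation factor genes have many processed copies in the genome. The table holds 72 pseudogenes named after members, 26 of them with no count in any library. Together they had 1551, 1667 and 1623 counts in siTCF19, against 1833, 1980 and 1931 counts in siNC, which is 0.949% to 1.05% of the members' counts in siTCF19 and 1.02% to 1.04% in siNC. Leaving out the members with more than 10% of their 100-base words in other genes, a choice made after the values had been seen, left 43 tested members, of which 25 fell and 3 rose, with a median of -0.18.

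Other genes of translation, taken from 8 lists with 49 tested of 51 genes, held 20 lower, 11 higher and 18 uncalled genes. Their median log2 fold change was -0.11. Over all tested genes 20.8% were lower and 20.7% higher, and among those of at least 50 CPM 34.3% were lower and 26.5% higher. In the list of poly(A)-binding and eIF4F-associated genes, 6 of 9 fell and none rose. PABPC1, the main poly(A)-binding protein, which ties the mRNA tail to eIF4G, averaged 537 ± 12.8 CPM in siTCF19 and 839.9 ± 5.63 CPM in siNC (SD, n = 3 each), a log2 fold change of -0.64 ± 0.04 (SE, edgeR adjusted p = 1.09e-16), and PABPC4, its paralogue, fell by 0.78. Of 5 tested elongation factors 4 fell and 1 rose. EEF2, the translocase, averaged 1907 ± 24.9 CPM in siTCF19 and 3079 ± 172 CPM in siNC (SD, n = 3 each), a log2 fold change of -0.69 ± 0.04 (SE, edgeR adjusted p = 4.37e-18). EEF1B2, EEF1A1 and EEF1D fell by 0.36, 0.26 and 0.16. EEF1G is listed at 0 in every library, and whether its reads were lost in counting was not tested. EEF1A2 rose by 1.10 on the log2 scale at a mean of 1.97 CPM in siTCF19 and 0.910 CPM in siNC.

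The genes that control eIF2 and eIF4E did not move one way, nor did all tested genes, of which 20.8% were lower and 20.7% higher. Of the 6 eIF2 alpha kinases and phosphatase subunits, 3 rose and 1 fell. EIF2AK3, which encodes PERK, the kinase of endoplasmic reticulum stress, averaged 56.0 ± 5.24 CPM in siTCF19 and 34.6 ± 2.45 CPM in siNC (SD, n = 3 each), a log2 fold change of 0.70 ± 0.07 (SE, edgeR adjusted p = 2.27e-10). PPP1R15A, the inducible subunit of the eIF2 alpha phosphatase, rose by 0.56, EIF2AK1 rose by 0.13 and PPP1R15B, the constitutive subunit, fell by 0.50 on the log2 scale. Among 15 mTORC1, S6 kinase and MNK genes, 5 rose, 4 fell and 6 were not called. RPS6KB1, an S6 kinase, averaged 56.7 ± 2.07 CPM in siTCF19 and 89.1 ± 3.86 CPM in siNC (SD, n = 3 each), a log2 fold change of -0.65 ± 0.06 (SE, edgeR adjusted p = 3.95e-12), MKNK2, a kinase of eIF4E, fell by 0.36, LARP1 fell by 0.28 and RHEB, the activator of mTORC1, rose by 0.27. Of 5 accessory factors DENR, DHX29 and DDX3X fell, by 0.51, 0.18 and 0.11, and MCTS1, the partner of DENR in reinitiation and recycling, rose by 0.24. The calls of DHX29 and DDX3X were each lost in 4 of the 6 runs that left out 1 library, that of EEF1D without siTCF19 replicate 2 (-0.11) and that of EIF2AK1 without siNC replicate 3 (0.13). Of the enzymes that make hypusine on eIF5A, DOHH fell by 0.27 and DHPS was not called. Termination and recycling factors held 1 rise (ETF1, 0.18) and 1 fall (GSPT1, -0.20) in 5 tested genes, and neither mitochondrial initiation factor gene, MTIF2 or MTIF3, was called.

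The authors' deposited table lists 25 members at an adjusted p under 0.05, 23 lower and 2 higher in siTCF19. The share of all genes listed at that level was not computed, so these counts have no background beside them. All 25 members were also called here with the same sign, from the same libraries.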

How the data were processed

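RNA-seq of 6 libraries was used, 3 of siTCF19 and 3 of siNC. Per the submitters' processing notes, the authors aligned reads with HISAT2 2.0.5 and counted them with featureCounts 1.5.0-p3 on hg38. The sources used here give neither the strand setting nor the treatment of reads that match several places. The authors deposited whole-number read counts and FPKM values per gene and library, per the file headers. The FPKM values equal the deposited count over gene length and 1 library size per library, which was 0.974 to 1.034 times the summed count. For each gene the authors also list a normalized mean signal of either group, per the file headers (not used), a p-value, its adjusted form and a log2 fold change, made with a tool that the sources used here do not name. All 58735 gene starts and ends equal those of GENCODE release 29.

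Counts were tested with edgeR 4.0.16 in R 4.3.3: filterByExpr, TMM scaling, glmQLFit and glmQLFTest with group as its single term, and Benjamini-Hochberg adjustment over all 17299 tested genes, which held at least 99.7% of the counts of each library. Genes under an adjusted p of 0.05 were called. A floor of 3 counts is 0.190 to 0.206 CPM. The floor covers counting error only, and the intervals cover counting error and the spread among these libraries. PCR copies cannot be recognised in a count table. CPM carry the SD over 3 libraries, and log2 fold changes their standard error (SE). The edgeR steps were also run on simulated counts. Far fewer genes were changed there than were called here, so that run does not check the scaling of these data.

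The alternatives changed the scaling (RLE, upper quartile, or library size alone), the filter (none, or 1 CPM in 3 libraries), the genes tested (protein-coding), the threshold (an adjusted p under 0.01), the model (replicate number as a block) or the tool (DESeq2 1.42.0, limma-voom, and limma-trend on log2(FPKM + 1), with limma 3.58.1), or dropped 1 library. A run without members that share more than 10% of their 100-base words was added after the values were seen. Exon overlap and words came from GENCODE transcripts, and start windows from RefSeq. Python 3.11.15, numpy 2.4.6, pandas 2.3.3, scipy 1.17.1 and matplotlib 3.10.9 were used.

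The members, the role groups and the 8 companion lists were chosen with earlier results of these data known. Library values are printed for called members that changed by 0.3 or more on the log2 scale, the member of highest FPKM in each role group and both genes of each paralogue pair; EIF3J, as 1 of 3 members called higher, and EIF4EBP3, for its few counts, were added after their values were seen. From each companion list up to 4 called genes are named by lowest p, and EEF1A2 was added after its value was seen as the elongation factor that rose.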

Additional observations from a re-analysis of the deposited data

How the results depend on the processing

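Of the 34 calls, 21 held under all 17 alternatives tried for single genes: the fall of EIF4B, EIF3D, EIF3E, EIF2S3, EIF4EBP1, EIF5A, EIF2S2, EIF6, EIF3B, EIF3L, EIF3F, EIF1AX, EIF4G3, EIF4A3, EIF4H, EIF4G1, EIF3M, EIF3I, EIF5 and EIF3A and the rise of EIF4EBP2. The other 13 (EIF1, EIF1B, EIF2B2, EIF2B4, EIF2S3B, EIF3C, EIF3CL, EIF3G, EIF3J, EIF4A1, EIF4E, EIF4E3 and EIF5AL1) lost their call at least once with the sign kept; the cause was not tested. EIF2D was called only with library-size-only scaling (0.16, edgeR adjusted p = 0.0231), and EIF4EBP3 only without siTCF19 replicate 2 (-1.33). The main run called 3586 of all tested genes higher and 3597 lower. DESeq2 called 2 members higher and 23 lower, beside 2820 and 2921 of all tested genes. On log2(FPKM + 1), limma-trend called 2 and 22 members, beside 2961 and 3110 of all tested genes. At an adjusted p under 0.01, 1 member was higher and 25 lower, beside 2696 and 2763 of all tested genes. Leaving out each library in turn gave 1 to 3 higher and 26 to 30 lower members. Over all tested genes these runs gave 3198 to 3470 higher and 3087 to 3331 lower. There was 1 higher member without siTCF19 replicate 2 and 1 without siNC replicate 2. The members' median log2 fold change ran from -0.22 to -0.19 in these runs. The median was -0.15 when only library size was scaled, -0.22 without a filter, -0.20 on log2(FPKM + 1) and -0.18 without members that share words.

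Signs turned only in members that were not called. With library-size-only scaling the log2 fold changes were 0.027 for EIF2A, 0.035 for EIF2B5, 0.020 for EIF3H, 0.011 for EIF4G2, 0.012 for EIF4E2, 0.052 for EIF5A2, 0.058 for EIF5B and 0.0028 for EIF1AD. EIF5B was at 0.0033 with upper-quartile scaling and 0.0045 among protein-coding genes only. Over the libraries left out in turn, EIF2A ran from -0.077 to 0.0088, EIF2B5 from -0.081 to 0.025, EIF4E2 from -0.098 to 0.0097, EIF5A2 from -0.072 to 0.059 and EIF5B from -0.042 to 0.079. The EIF4G1/EIF4G3 difference was -0.0027 on log2(FPKM + 1) and ran from -0.028 to 0.067 over the libraries left out.

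Same-numbered libraries of the groups did not deviate together (correlations 0.0086, -0.024 and 0.021). These values cannot tell whether same-numbered libraries were prepared together. With the replicate number as a block, 2 members were higher and 30 lower, with a median of -0.21, and 3433 genes were higher and 3441 lower in all; EIF4E (-0.14, edgeR adjusted p = 0.0586) and EIF1B (0.17, edgeR adjusted p = 0.079) were not called. EIF4EBP3, with few counts, had the largest standard error of the tested members (0.41), so small differences in it were not detectable at this depth.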
